A study of Mus musculus with 6 samples.

Results

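Transcripts of 9 complement components and regulators were followed in RNA of the mouse thoracic aorta: C1ra, C1s1, C2, C3, C4b, C7, Cfb, Cfd and Serping1. The genes were chosen by name and not by a rule on their measured values, but with earlier results of these data known. All 9 were found by Ensembl identifier among the 52636 genes of the count table. Bulk RNA sequencing was done on 6 libraries of 12-week-old mice, to find transcripts that respond to short-term loss of the TGF-β receptors of smooth muscle cells (SMCs). The 4 WT libraries came from untreated C57BL/6J mice. The 2 KO libraries came from mice called Tgfbr1/2iSMCKO, which also have the C57BL/6J strain label. They carry floxed alleles of both receptor genes (Tgfbr1f/f and Tgfbr2f/f), a tamoxifen-dependent Cre driven by the SMC promoter of Myh11 (Myh11-CreERT2), and mT/mG, a reporter that marks recombined cells. By the study's methods all were male, since the Cre transgene lies on the Y chromosome. Tamoxifen was given at 2 mg per day for 5 days i.p. from 11 weeks of age. The WT mice lacked these alleles and received no tamoxifen, so receptor loss, Cre, the reporter and tamoxifen cannot be told apart in this comparison.

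Complement is a cascade of plasma proteins that marks surfaces for clearance. In the classical pathway, C1q binds its target and activates the serine proteases C1r and C1s, which cut C4 and C2 to form a C3 convertase. The alternative pathway builds a second C3 convertase from C3 itself and factor B, after factor D has cut factor B. Both lead to the membrane attack complex, of which C7 is a part, and C1 inhibitor, the product of Serping1, blocks C1r and C1s. Most plasma complement is made in the liver, while fibroblasts, macrophages, adipocytes and vascular cells also transcribe some of these genes.

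Of the 9 genes, 5 rose in the KO libraries (DESeq2, Benjamini-Hochberg adjusted p under 0.05) and none fell, all 9 estimates being above 0 in DESeq2 and in edgeR. C3 and C4b were about 2.92-fold and 2.93-fold higher, Cfb 2.09-fold and Cfd 4.83-fold by group means, and C1s1 was 1.54-fold higher. C1ra, C2, C7 and Serping1 did not pass. The share of all 17070 tested genes that passed was 10.4% in either direction and 5.71% for higher genes. Rises of more than 2-fold were called for 4 of the 9 genes, against 3.54% of the genes tested. Both KO libraries lay above all WT libraries for 7 of the 9 genes, and for 17.9% of the genes tested. The median log2 fold change was 0.62 over the 9 genes and 0.01 over all genes tested. No direction changed when library totals replaced size factors.

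**Figure D1:**
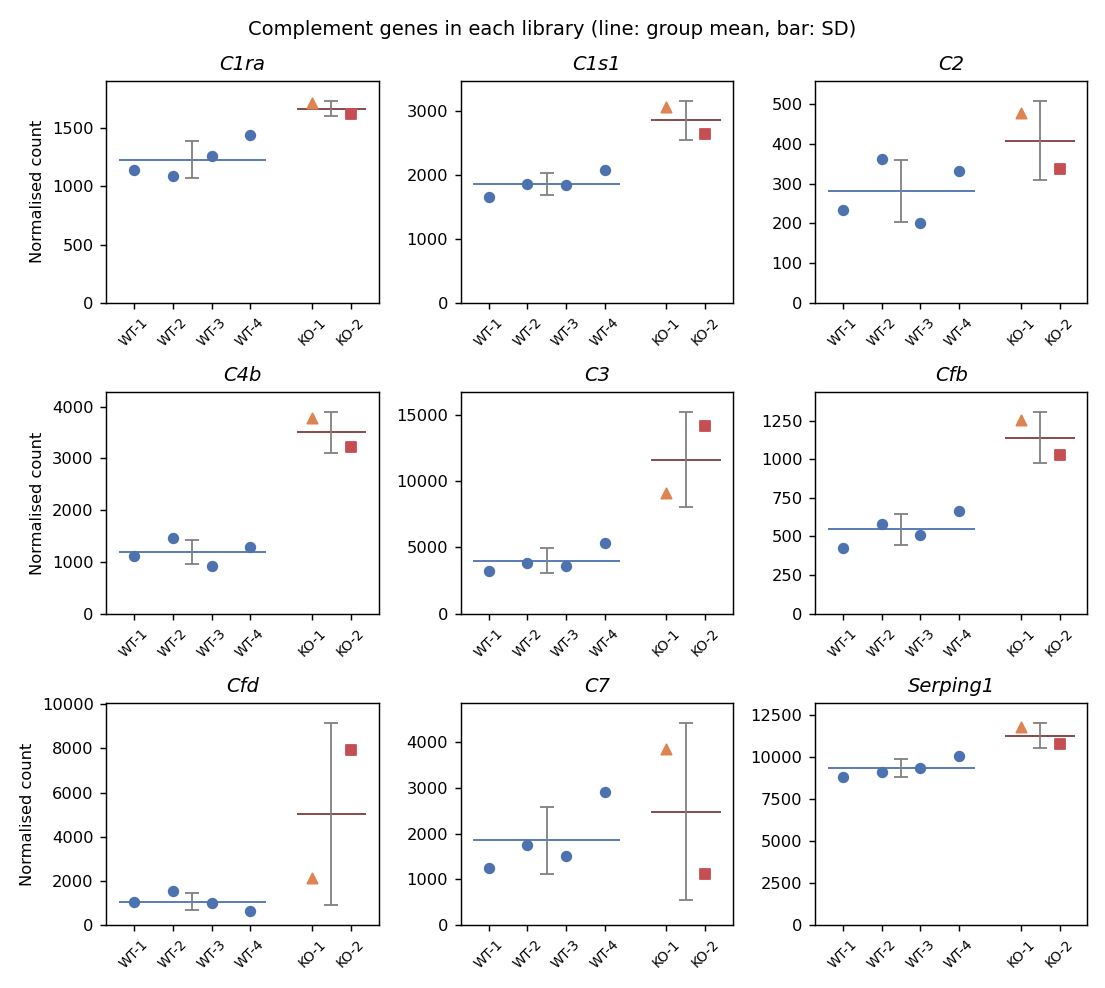
Normalised counts (counts divided by DESeq2 size factors, y axis from 0) of the 9 complement genes in each of the 4 WT libraries (circles) and the 2 KO libraries (triangle, KO-1; square, KO-2). Horizontal lines are group means and bars are ±1 SD; the KO libraries lie far apart for Cfd and C7 and close together for C1ra, C4b and Serping1.

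Totals ran from 19650983 to 28860598 counts per library. The counts of Tgfbr1 (log2 fold change 0.20, adjusted p = 0.63 in DESeq2) and Tgfbr2 (log2 fold change -0.09, adjusted p = 0.838) overlapped between the groups. These counts cover whole genes and cells of all kinds, so they do not check the deletion. The groups rest on the labels and on a match of columns to libraries that was inferred from the column codes. Defining SMC transcripts were abundant in every library, with 372417 to 445616 normalised counts of Acta2, smooth muscle actin, in WT and 328092 and 381467 in KO. The KO libraries stood apart from each other in other markers. KO-2 held more red blood cell, brown fat and white fat transcripts and an 11.7% mitochondrial share of counts, against 2.62% to 4.44% in the other libraries, and KO-1 held more cardiac muscle transcripts.

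The promoter windows of C3, Cfd and C1s1 are shown because these are the called genes with an entry in the RefSeq table used (GRCm38.p6). Each runs from 250 bases before to 50 bases after the annotated start, 5′ to 3′ on the gene's strand. Capitals mark CAGAC or its reverse complement GTCTG, the box that Smad proteins downstream of TGF-β receptors bind, and TATAAA or TTTATA, the TATA element. The C3 window is chr17:57228087-57228386 on the minus strand, the Cfd window chr10:79890603-79890902 on the plus strand and the C1s1 window chr6:124542310-124542609 on the minus strand. Another annotated start of C1s1 gives the window chr6:124542272-124542571, which is not shown.
C3: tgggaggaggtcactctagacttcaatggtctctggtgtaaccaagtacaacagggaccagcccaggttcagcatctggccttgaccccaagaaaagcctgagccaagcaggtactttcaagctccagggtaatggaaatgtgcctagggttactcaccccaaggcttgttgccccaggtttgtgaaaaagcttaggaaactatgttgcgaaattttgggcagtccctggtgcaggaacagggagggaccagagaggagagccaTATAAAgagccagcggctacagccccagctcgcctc
Cfd: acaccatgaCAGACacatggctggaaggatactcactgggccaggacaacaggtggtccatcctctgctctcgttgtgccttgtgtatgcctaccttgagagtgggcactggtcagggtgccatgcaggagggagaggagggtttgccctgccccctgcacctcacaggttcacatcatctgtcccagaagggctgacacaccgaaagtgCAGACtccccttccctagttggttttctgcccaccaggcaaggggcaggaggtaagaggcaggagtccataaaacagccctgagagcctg
C1s1: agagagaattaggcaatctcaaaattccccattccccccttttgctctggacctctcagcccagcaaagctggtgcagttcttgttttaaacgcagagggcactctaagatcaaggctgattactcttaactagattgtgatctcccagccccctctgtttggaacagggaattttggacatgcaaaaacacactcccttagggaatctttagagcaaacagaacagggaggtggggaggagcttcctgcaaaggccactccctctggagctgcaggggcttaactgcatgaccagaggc
Positions count the annotated start as base 1. The Cfd window held the Smad box at -241 and -40, C3 held TATAAA at 15 and no Smad box, and C1s1 held neither. Both strands were searched, also for the STAT element TTCNNNGAA, the interferon response core GAAANNGAA and the NF-κB consensus, none of which was in these 3 windows. Of all 32851 promoter windows, 49.6% held a Smad box, 13.6% the TATA element, 8.3% the STAT element, 8.6% the interferon response core and 8.5% the NF-κB consensus. These matches describe letters in a window and not binding.

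C3, whose cleavage is the step on which the pathways converge, had 3204.1, 3818.4, 3578.0 and 5353.4 normalised counts in the WT libraries, and 9106.9 and 14161.2 in KO-1 and KO-2. The groups did not overlap, and the lower KO library was well above the highest WT library, WT-4. The gene (ENSMUSG00000024164.15, chr17:57203970-57228136, minus strand) averaged 3988.5 ± 944.4 in WT (SD, n = 4) and 11634.0 ± 3573.9 in KO (SD, n = 2). The log2 fold change was 1.54 (SE 0.25, 95% confidence interval 1.06 to 2.03, adjusted p = 7.2e-08 in DESeq2). Against WT, the log2 fold change was 1.20 with KO-1 alone and 1.83 with KO-2 alone, and C3 passed the test in both.

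Cfb encodes factor B, the protease subunit of the alternative pathway convertase (ENSMUSG00000090231.10, chr17:34856374-34862518, minus strand). It had 426.2, 583.7, 509.3 and 664.1 normalised counts in the WT libraries and 1255.8 and 1025.1 in KO-1 and KO-2. All KO values were above all WT values, and here KO-1 was the higher. Its log2 fold change was 1.06 (SE 0.23, interval 0.61 to 1.51, adjusted p = 0.000144 in DESeq2). Cfb shares 79.5% of its exon length with the readthrough gene Gm20547, which had between 0 and 11 counts in the WT libraries and none in the KO libraries.

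Cfd encodes factor D, also called adipsin, the protease that activates factor B and a product of fat cells (ENSMUSG00000061780.6, chr10:79890853-79892655, plus strand). It had 1014.9, 1550.9, 988.6 and 608.7 normalised counts in WT-1 to WT-4, 2119.3 in KO-1 and 7929.3 in KO-2. Both KO libraries were above the WT range, but they differed 3.74-fold from each other, the widest gap among the 9 genes. KO-1 was 2.04-fold and KO-2 7.62-fold above the WT mean. The log2 fold change was 2.27 with a wide error (SE 0.65, interval 1.0 to 3.54, adjusted p = 0.00811 in DESeq2). The call was lost without KO-2 (log2 fold change 1.04, adjusted p = 0.113 in DESeq2) and without WT-1 (2.26, adjusted p = 0.052 in DESeq2).

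Fat transcripts moved with Cfd in KO-2, and so did other marker lists. The mesothelial sum was at 2.64-fold the WT mean in KO-1 and 7.19-fold in KO-2. The lymphocyte sum, at only 17.8 to 69.2 normalised counts in WT, was at 2.23-fold and 7.67-fold. Fibroblast, endothelial and cardiac muscle sums were lower in KO-2 than in KO-1. Adipoq, the fat cell hormone adiponectin, had 171.2 to 396.9 normalised counts in WT, 330.1 in KO-1 and 2577.6 in KO-2. The summed white adipocyte list (9 genes, 3 called higher in DESeq2, and in edgeR 1 with its low-count filter and 3 without it) ran from 16480 to 19303 in WT and was 18004 in KO-1 and 54906 in KO-2. Most of this sum was Plin4, a lipid droplet protein, which had 11894.7 to 12710.3 normalised counts in WT and 9959.8 and 9501.4 in KO. Without Plin4, an alternative chosen after seeing the data, the sum ran from 4233.1 to 7098.1 in WT and was 8044.5 in KO-1 and 45404.2 in KO-2, at 1.42-fold and 7.99-fold the WT mean. The brown adipocyte list (7 genes, 5 called higher, and 4 in edgeR with its filter) ran from 1114 to 1564 in WT and was 4129 in KO-1 and 14639 in KO-2. Most of the KO-1 sum was Dio2, with 3152.7 normalised counts against 728.8 to 878.7 in WT. Both KO libraries were above all WT libraries for 5 of the 7 genes. Ucp1 was not among them, with 0 to 123.0 in WT, 40.2 in KO-1 and 6861.2 in KO-2. Elovl3 was not either, with 0 in KO-1 and 193.0 in KO-2. In KO-1, Fabp4 (2423.5) and Lpl (4419.9) were above all WT libraries, as Cfd was, and the other 7 genes of the white fat list were not. The part of fat in the Cfd difference was not tested in either KO library. In whole tissue, a change in the number of cells of a type and a change in RNA per cell cannot be told apart.

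**Figure D2:**
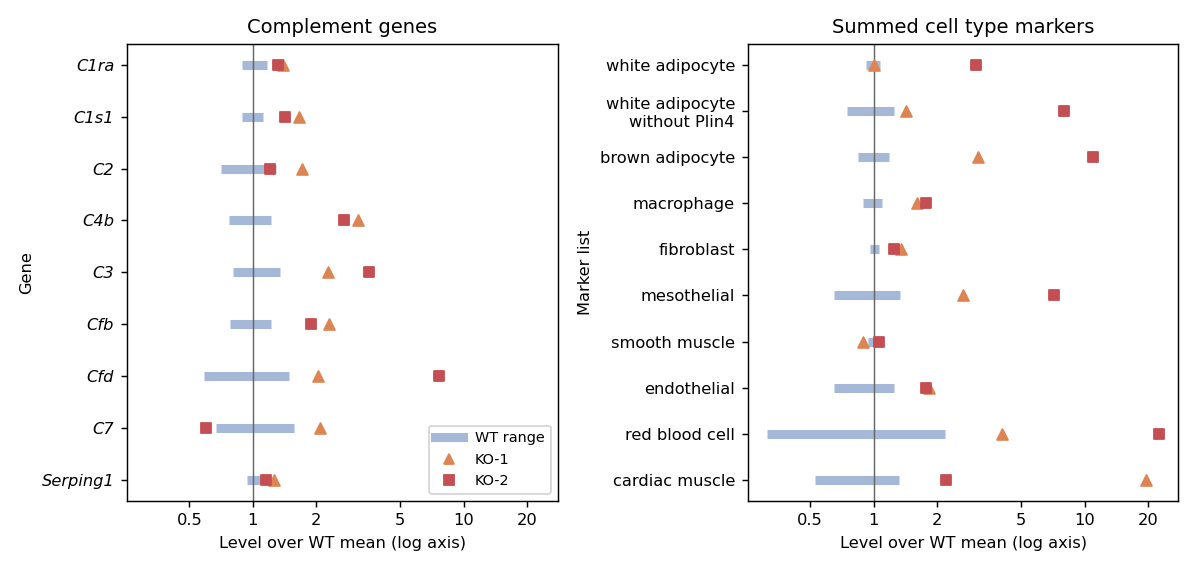
Level in each KO library divided by the WT mean (log axis) for the 9 complement genes (left) and for summed markers of cell types (right); bars span the 4 WT libraries, triangles are KO-1 and squares KO-2. The white adipocyte sum of all 9 genes is at 1.0-fold in KO-1 and 3.06-fold in KO-2. Without Plin4, an alternative chosen after seeing the data, it is at 1.42-fold and 7.99-fold. Cfd is at 2.04-fold and 7.62-fold.

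C4b rose in the classical pathway with the smallest adjusted p-value of the 9 genes. It encodes C4, whose larger fragment joins that of C2 in the convertase (ENSMUSG00000073418.4, chr17:34728380-34743882, minus strand). It had 1107.2, 1465.6, 918.7 and 1297.9 normalised counts in WT and 3778.0 and 3227.8 in KO-1 and KO-2. The KO libraries lay close to each other and far above WT. The means were 1197.3 ± 236.5 (SD, n = 4) and 3502.9 ± 389.0 (SD, n = 2), and the log2 fold change was 1.55 (SE 0.22, interval 1.12 to 1.98, adjusted p = 2.6e-10 in DESeq2). C4a, a near-identical copy for which the split of reads is uncertain, had 7.31 to 17.1 normalised counts in WT and 3.79 and 0 in KO.

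C1s1, the C1s protease (ENSMUSG00000038521.17, chr6:124530345-124542359, minus strand), had 1649.8, 1863.4, 1839.4 and 2076.8 normalised counts in WT and 3067.8 and 2640.2 in KO. Neither KO library overlapped WT. The log2 fold change was 0.62 (SE 0.17, interval 0.28 to 0.96, adjusted p = 0.00674 in DESeq2), and without KO-1 it was 0.51 (adjusted p = 0.0566 in DESeq2). The antisense gene Gm16567 covers 18.4% of its exon length and had between 0 and 12 counts per library.

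C1ra, the partner protease C1r (ENSMUSG00000055172.10, chr6:124512405-124523443, plus strand), had 1139.1, 1089.3, 1259.2 and 1440.9 normalised counts in WT and 1715.6 and 1623.7 in KO. The groups did not overlap, but the log2 fold change of 0.44 (SE 0.19, interval 0.08 to 0.80) missed the threshold with an adjusted p = 0.118 in DESeq2. Without WT-4, the highest WT library, it passed (0.53, adjusted p = 0.0276 in DESeq2). The copies C1rb and C1s2 had at most 7.18 normalised counts in any library.

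C2, the protease that C1s cuts beside C4 (ENSMUSG00000024371.14, chr17:34862604-34898265, minus strand), had 234.0, 362.8, 199.7 and 332.0 normalised counts in WT and 478.8 and 338.0 in KO. KO-2 lay inside the WT range. The log2 fold change was 0.54 (SE 0.30, interval -0.06 to 1.13, adjusted p = 0.292 in DESeq2), so neither no change nor a change of 2-fold is outside the interval. C2 shares 42.8% of its exon length with Gm20547.

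Serping1, the C1 inhibitor that restrains C1r and C1s (ENSMUSG00000023224.12, chr2:84765387-84775444, minus strand), had 8806.0, 9131.2, 9380.9 and 10092.8 normalised counts in WT and 11795.3 and 10761.3 in KO. Both KO libraries were above WT by a small margin. On the log2 scale the change was 0.27 (SE 0.15, interval -0.02 to 0.56, adjusted p = 0.279 in DESeq2). With an upper bound of 0.56, a 2-fold rise is outside its interval.

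C7, which inserts into the membrane attack complex (ENSMUSG00000079105.3, chr15:4988762-5063740, minus strand), had 1236.8, 1757.5, 1500.9 and 2901.7 normalised counts in WT, 3845.5 in KO-1 and 1111.2 in KO-2. KO-1 was above every WT library and KO-2 below every WT library. The log2 fold change of 0.42 had an SE of 0.65 (interval -0.85 to 1.69, adjusted p = 0.775 in DESeq2), and it was 1.07 with KO-1 alone and -0.73 with KO-2 alone. Cfd and C7 thus differed in opposite directions between the KO libraries, KO-2 being at 3.74 times KO-1 for Cfd and at 0.289 times for C7. For C3 the same ratio was 1.55 and for the other 6 genes it ran from 0.706 to 0.946.

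**Figure D3:**
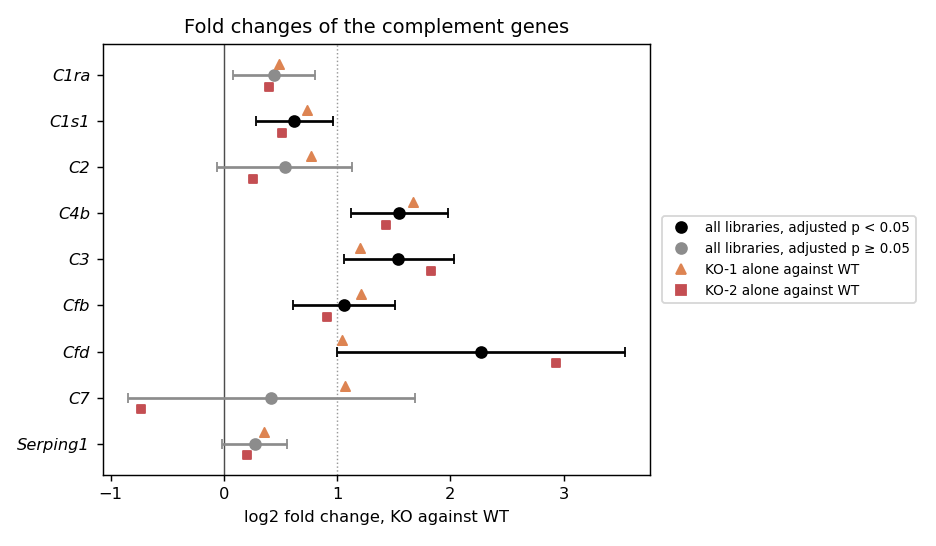
Log2 fold change of each complement gene, KO against WT, with its 95% confidence interval (circles, black where the adjusted p is under 0.05; dotted line, 2-fold), beside the value with KO-1 alone (triangles) or KO-2 alone (squares). C7 changes sign between the KO libraries, from 1.07 to -0.73, and Cfd ranges from 1.04 to 2.93.

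Per length of exon, C1 inhibitor was the most abundant of these transcripts in WT aorta. Serping1 had 4022.7 normalised counts per kb, at percentile 98.8 of the 15530 protein-coding genes with counts in WT. It was followed by Cfd at 1128.9, C3 at 775.5, C7 at 691.0, C1s1 at 593.6, C1ra at 413.3, C4b at 210.2, Cfb at 193.2 and C2 at 72.9 normalised counts per kb. The WT libraries did not overlap between Serping1 and Cfd, which were 3.56-fold apart, between C1s1 and C1ra, between C1ra and C4b, or between Cfb and C2. They overlapped for Cfd and C3, C3 and C7, C7 and C1s1, and C4b and Cfb, so the order of these neighbours is not settled beyond their spread. In KO, the mean per kb of Cfd (5449.4) was above that of Serping1 (4850.9), which was so in KO-2 and not in KO-1. C4b (615.1 per kb in KO) was above C1ra (560.1) in both KO libraries. Among WT libraries the CV was smallest for Serping1 (5.84%) and largest for C7 (39.6%) and Cfd (37.2%).

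**Figure D4:**
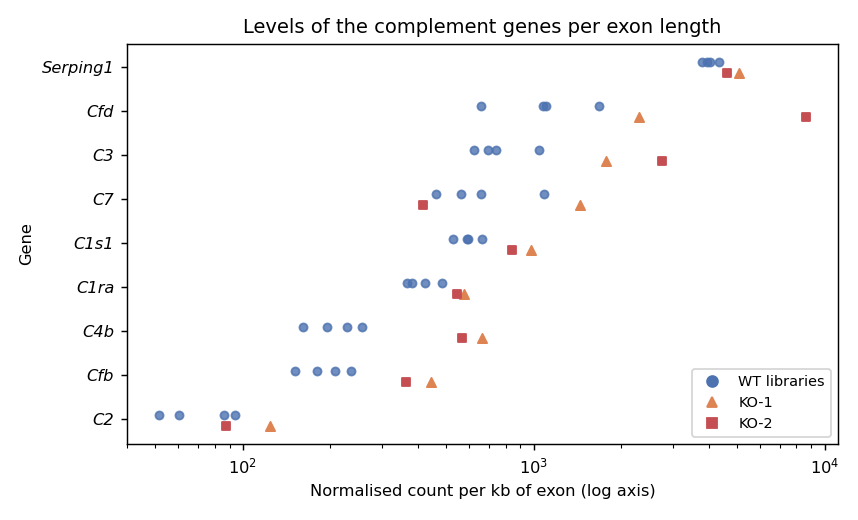
Normalised counts per kb of merged exon length (log axis) of the 9 complement genes, ordered by WT mean; circles are WT libraries, triangles KO-1 and squares KO-2. Serping1 is at 3787.5 to 4341.0 per kb in WT and C2 at 51.6 to 93.7.

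Of 47 other complement genes, 32 were tested, 10 rose and none fell, with a median log2 fold change of 0.78 over those tested, and 8 had 0 counts in all libraries. At an unadjusted p under 0.05 in DESeq2, 18 were higher and 3 lower. edgeR called 7 higher with its filter on low counts and 9 without it, and none lower. Among recognition molecules, 3 of 7 tested genes rose. These were the subunits of C1q: C1qa (log2 fold change 0.80, adjusted p = 8.29e-05 in DESeq2), C1qb (0.72, 0.0442) and C1qc (0.56, 0.0165). C1qa had 1180.9 to 1427.9 normalised counts in WT and 2183.8 and 2235.8 in KO, whereas C1qb of KO-1 (1533.5) was inside the WT range of 1150.7 to 1579.5, and edgeR called only C1qa of the 3, with and without its filter. None of the 4 tested genes of the other proteases and C4a passed, nor did the 2 tested terminal genes, in DESeq2 with all libraries or in edgeR with its filter. At an unadjusted p under 0.05 in DESeq2, 1 protease was higher, C4a was lower and 1 terminal gene was higher. Masp2, a protease of the lectin pathway, was called higher in edgeR without the filter and in DESeq2 without WT-3 or without WT-4. It had 15.4, 8.08, 0 and 0 normalised counts in WT and 117.6 and 77.4 in KO, and 54.9% of its exon length overlaps Tardbp on the opposite strand. Hc, which encodes C5, had at most 8.60 normalised counts in any library, and C8b and C9 had none.

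Receptors for complement fragments made up the group with the most calls, 5 of 8 tested genes. C3ar1, the C3a receptor, had 162.5 to 209.9 normalised counts in WT and 353.6 and 565.4 in KO (log2 fold change 1.39, adjusted p = 2.87e-05 in DESeq2). C5ar1, the C5a receptor, had 112.8 to 132.9 in WT and 233.7 and 229.9 in KO (0.92, adjusted p = 0.00899 in DESeq2). The chains of complement receptor CR3, Itgam (1.80) and Itgb2 (1.42), and the macrophage receptor Vsig4 (2.25) also rose on the log2 scale. The count of Itgam is uncertain, since 68.7% of its exon length is shared with the readthrough gene Gm49368.

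Among regulators, 2 of 11 tested genes rose, and the median log2 fold change was 0.11. Cd55, which speeds the decay of convertases on cells, had 180.5 to 313.2 in WT and 520.5 and 694.5 in KO (1.39, adjusted p = 4.22e-05 in DESeq2). Clu, or clusterin, had a log2 fold change of -0.07 (SE 0.16, adjusted p = 0.854 in DESeq2). Cfi, a protease that inactivates C3b and C4b fragments, had 0 counts in every WT library and 6.83 and 6.15 normalised counts in KO.

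**Figure D5:**
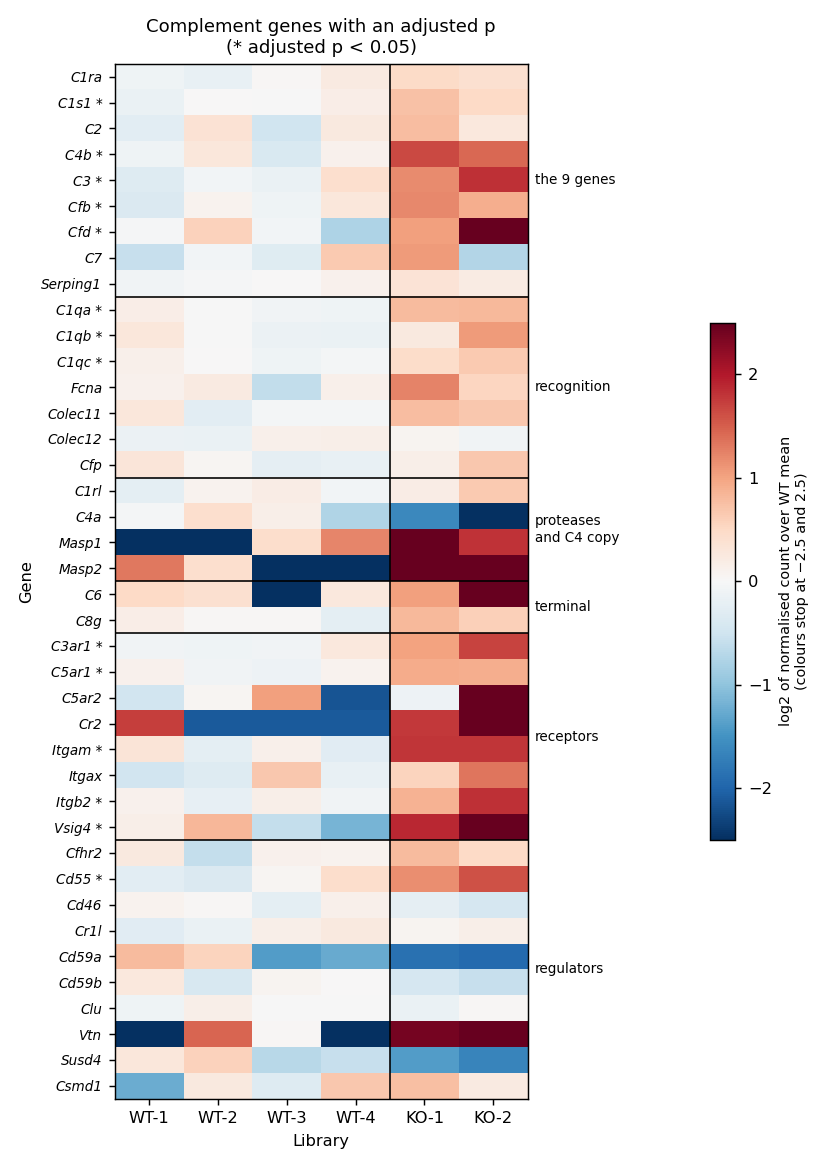
Log2 of the normalised count over the WT mean (pseudocount 0.5, colour from blue, lower, to red, higher) in each library for the 9 genes and other complement genes with an adjusted p, grouped by role; an asterisk marks an adjusted p under 0.05. Rows such as Masp2, C6, Cr2 and Vtn swing between WT libraries because their counts are near 0.

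Summed markers of several cell types that can make complement were also higher in the KO libraries. All 8 macrophage markers had both KO libraries above WT, 6 of the 8 were called higher (3 in edgeR with and without its filter), and their sum ran from 7482 to 9274 normalised counts in WT and was 13505 and 14910 in KO-1 and KO-2. In the fibroblast list 2 of 8 genes rose (1 in edgeR), with sums of 45490 to 50013 in WT and 63518 and 58893 in KO, or 1.35-fold and 1.25-fold the WT mean. Both KO libraries were above all WT libraries for 4 of these 8 genes, and Clec3b had a log2 fold change of -0.48. The largest part of the sum was Dcn, which was not called (0.38, adjusted p = 0.0679 in DESeq2). The ratios to the WT mean were 1.39 and 1.32 for C1ra, 1.26 and 1.15 for Serping1, and 3.16 and 2.70 for C4b. In the mesothelial list 6 of 7 genes rose (3 in edgeR with its filter and 4 without it), with sums of 228.1 to 468.3 in WT and 925.7 and 2517.3 in KO, the higher library being KO-2 as for C3. In the endothelial list 3 of 6 rose, as in edgeR, with sums of 10549 to 20363 in WT and 29692 and 28711 in KO. The parts these cells have in the complement changes were not tested.

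In the hepatocyte list, 2 of 3 tested genes rose, while Ttr, Serpina1a and Fgb had 0 counts in all libraries. Ahsg, or fetuin-A, had 141.0 to 232.8 normalised counts in WT and 773.2 and 767.0 in KO. Alb, serum albumin, had 0 counts in WT and 41.7 and 279.0 normalised counts in KO-1 and KO-2. The summed red blood cell list ran from 859.3 to 5989.6 in WT and was 11076 in KO-1 and 61684 in KO-2, with 4 of 4 tested genes called. The cardiac muscle sum ran from 654.7 to 1630.0 in WT and was 24059 in KO-1 and 2719 in KO-2, with 4 of 6 genes called (3 in edgeR). Neutrophil granule genes Mpo, Elane and Ly6g had 0 counts in all libraries, and 1 of 3 tested neutrophil genes was called in DESeq2 and none in edgeR, where 3 had an unadjusted p under 0.05. None of 6 tested lymphocyte genes and none of 7 SMC genes was called, and the SMC sum was 835575 and 994281 in KO against 881200 to 1039466 in WT. At an unadjusted p under 0.05 in DESeq2, 2 lymphocyte genes were higher, and of the SMC genes 1 was higher and 3 were lower; edgeR called none in either list.

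Genes that are known to induce complement transcription or to rise with it in the acute phase mostly did not pass. Of 14 such genes 11 were tested and 1 rose, and the median log2 fold change of the list was 0.05. Il6 and Saa3 had no counts in WT or in KO-2, and 5.31 and 6.83 normalised counts in KO-1.

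The 3 called genes of chromosome 17 include C4b and Cfb, which lie with C2 in the class III region of the major histocompatibility complex, over 169886 bp. Of 20 other tested genes in this span and within 100 kb of it, none rose and 3 fell (at an unadjusted p under 0.05 in DESeq2, 1 was higher and 7 lower, and edgeR called none higher and 2 lower with its filter, 1 without it), with a median log2 fold change of -0.35. Those that fell were Ppt2 (-0.67), Ehmt2 (-0.50) and Tnxb (-1.15, adjusted p = 2.13e-06 in DESeq2), the tenascin gene next to C4b. Of all 17070 genes tested, 801 were called lower in DESeq2. Around C1ra and C1s1, which lie within 29955 bp on chromosome 6, none of 4 tested neighbours was called in DESeq2, where 1 had an unadjusted p under 0.05, or in edgeR.

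Over the 6 libraries, the genes with the most similar profile to C3 among 11447 genes with a mean of at least 100 normalised counts were Ednrb, Ctr9 and Gprc5b (Pearson r of log2 values 0.996 each). For C4b they were Rassf3, Syk and Daam2 (0.995, 0.994 and 0.993), and for Cfd they were Zfp36l1, Lrg1 and Slc36a2 (0.997, 0.993 and 0.993). For Cfb, the gene with the highest r was C1s1 itself (0.994). Between members, r ran down to -0.35 for C7 and Cfd. With so few libraries, which share the group difference, these values are a description.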

How the data were processed

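RNA of 6 thoracic aortas was analysed (4 WT, 2 KO). The authors trimmed reads with Trim Galore, mapped them to GRCm38 (mm10) with HISAT2 and estimated counts with StringTie on GENCODE M15. Deposited per gene are estimated counts, as whole numbers with no scaling for depth; whether strand was used is not given in the sources used here. Columns carry codes, and their match to libraries was inferred from the codes. DESeq2 1.42.0 (R 4.3.3) compared KO with WT over all genes by the Wald test, with group as the only term. Positions and exon lengths came from GENCODE M21, which matched 52489 of 52636 identifiers. DESeq2 was used as the main test because the study used it. edgeR 4.0.16, other scalings and filters, GC content and leaving out each library were alternatives. The fit was tested on simulated data.

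The 9 genes, the lists and the tests were chosen with earlier results of these data known. All 9 genes are named; of the other complement and acute phase genes, those called and a short set fixed by name; of the cell type lists, the gene with the highest mean, though not every such gene is given; and for some of the 9 genes, the 3 with the highest correlation. Some genes that this rule names are not reported here. Other genes in the text were chosen after their values were seen. Nothing states that libraries of a group are more than separate samples, so p-values measure the spread between these samples. Adjusted p-values cover all genes tested. With 2 KO libraries, intervals rest on a spread shared across genes. RefSeq promoter windows were found for 5 of the 9 genes.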

Additional observations from a re-analysis of the deposited data

Results flagged for a closer look

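C3ar1 in WT-4 stood apart from the other WT libraries, with 209.9 normalised counts against 162.5 to 164.8, a gap of 0.953 of the range of the group. All WT libraries were below both KO libraries. Of 29 such values checked, for single complement genes and for summed cell type lists, this was the only case, where chance gives about 1.5.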

How the results depend on the processing

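Among 14 alternatives, 6 of which left out a library, C3, C4b and Cfb passed in 13, C1s1 and Cfd in 11, C1ra in 1, and C2, C7 and Serping1 in none. Against a null of a 2-fold change, 0 of the 9 genes, 0 with a fold change above 2, 0 of the other complement genes and 114 of all genes passed in DESeq2, against 5, 4, 10 and 1775; at an unadjusted p under 0.05, 2 of the 9 and 2 of the others passed it. Leaving out a library gave 4 to 6 of the 9 genes, 2 to 4 with a fold change above 2, 7 to 12 other complement genes and 1113 to 2439 of all genes; the 2 came without WT-1, where Cfd missed the threshold and Cfb, though called, had a log2 fold change of 0.96, and the 1113 came without KO-2. C7 reversed without KO-1, to -0.73 (range over libraries left out, -0.73 to 1.07). edgeR called 996 genes with its filter and 931 without it, and the same 5 of the 9 genes as DESeq2 in both. With the replicate number as a block (replicate block), 628 of all genes, 5 other complement genes (4 of them shared with the 10) and 4 of the 9 passed; C1s1 was lost (adjusted p = 0.193 in DESeq2). The deviations of same-numbered libraries had r of -0.0867 and 0.014 over genes. With 2 KO libraries, their deviations mirror each other, so this check cannot settle whether libraries are paired. The GC trend of transcripts was taken out as an alternative added after seeing the data, in place of the planned one on merged exons, which was not run because no genome sequence was used; it called the same 5 genes. Total counts in place of size factors moved the median of all genes by 0.04 on the log2 scale. Genes with 3 or fewer counts per library are at the limit that a count of 0 allows, for counting error only.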

Other observations

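Cd59a, which blocks the membrane attack complex on cells, split the WT libraries: WT-1 and WT-2 had 2761.4 and 2368.1 normalised counts, WT-3 and WT-4 had 604.2 and 671.4, and the KO libraries had 436.3 and 414.2. Its log2 fold change was -1.91 (SE 0.80, adjusted p = 0.115 in DESeq2), and the gene was chosen after its values were seen. Susd4, a complement inhibitor, had a similar split, with 67.0 and 82.6 normalised counts in WT-1 and WT-2, 34.0 and 36.5 in WT-3 and WT-4, and 20.5 and 17.2 in KO-1 and KO-2 (log2 fold change -1.54, adjusted p = 0.0621 in DESeq2). Without WT-3, both were called lower. Susd4 was also called without WT-4 and on genes with a mean count of at least 10, and Cd59a with the replicate block. Hp, or haptoglobin, an acute phase protein that fat also makes, had 240.2 to 690.6 normalised counts in WT, 452.2 in KO-1 and 2577.6 in KO-2.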
